A study of Bos taurus with 32 samples.

Results

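The genes ENSBTAG00000012708, ENSBTAG00000021814 and ENSBTAG00000039151, of the cattle genome were followed through the testicle, hypothalamus, pituitary and adrenal of the same calves. These 3 of the 27607 genes counted were chosen by their difference between calves of unlike embryo origin in the testicle, where ENSBTAG00000012708 was higher and the other two were lower in calves from embryos made in vitro. Testicle values by origin are therefore given as a description, with no test. Tests are given for the level of each gene by tissue and for the origin difference in the 3 other tissues. How the 3 genes were picked among the leading testicle genes is not known in full. Values of the other tissues may therefore have entered the choice.

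The animals were 8 male Holstein calves. Each calf gave 1 library from each of 4 tissues, 32 libraries in all. The IVP group held 4 calves (3208, 3209, 5833 and 5841) grown from in vitro produced embryos, aged 98 to 103 days and weighing 118 to 138 kg at collection. The MOET group, the controls, held 4 calves (3213, 3217, 3218 and 5932) from embryos conceived in the donor cow by insemination after superstimulation of the ovaries; 3 of them were 102 to 104 days old and weighed 108 to 131 kg, and calf 3213 was 144 days old and weighed 172 kg. Embryos of both kinds were carried by synchronized recipient cows, and all calves were reared alike. Birth weights were 36 to 41 kg in IVP and 33 to 39 kg in MOET calves. No other treatment or genotype separates the groups in the labels.

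In vitro production moves oocyte maturation, fertilization and the first cleavages from the oviduct to a culture dish, a period in which the embryo resets much of its DNA methylation. The hypothalamus drives the pituitary, whose gonadotropins act on the testis and whose corticotropin acts on the adrenal cortex. At the age of these calves the bull testis is still prepubertal. Its seminiferous cords hold immature Sertoli cells and early germ cells, and Leydig cells lie between the cords. In bulk tissue, fewer cells that express a gene and less RNA per cell cannot be told apart.

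The count table names genes by Ensembl ID only, and 0 of its 27607 IDs could be matched to a symbol in the RefSeq table used here. What the 3 genes encode is therefore not stated, and the tissues were not checked against marker genes. Levels are given as CPM, counts per 1000000 counts of the library, after scaling with TMM factors over all 32 libraries. They are compared for 1 gene across libraries and not between genes, since gene lengths were not used. Library totals ran from 17357283 to 23380330 counts, and a floor of 3 counts stood for 0.125 to 0.180 CPM. The replicates are separate animals.

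ENSBTAG00000012708 was the gene of the 3 that was higher in IVP testicles. Its testicle level was 73.7 CPM in IVP calf 3208, 87.0 in 3209, 82.5 in 5833 and 69.1 in 5841. In the MOET testicles it was 43.5 CPM in calf 3213, 44.1 in 3217, 45.0 in 3218 and 41.0 in 5932. All 4 IVP calves lay above all 4 MOET calves, and the lowest IVP value was 1.54 times the highest MOET value. The means were 78.1 ± 8.14 CPM in IVP and 43.4 ± 1.72 CPM in MOET calves (SD, n = 4), or on the log2 scale a fold change of 0.87 (SE 0.11), which is a ratio of 1.83. The counts behind these values were 1646 to 1978 per IVP library and 913 to 1043 per MOET library. The 4 MOET testicles differed little for this gene, with a coefficient of variation (SD over mean) of 3.96%, where counting alone would give 3.15%. In the IVP testicles it was 10.4%, where counting alone would give 2.38%. A choice on a contrast between groups can favour genes with a small spread within them. These spreads therefore describe the chosen gene in these 8 testicles only.

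ENSBTAG00000021814 was lower in IVP testicles. It stood at 4.60 CPM in IVP calf 3208, 4.04 in 3209, 5.05 in 5833 and 4.41 in 5841. The MOET testicles had 8.84 CPM in calf 3213, 8.50 in 3217, 9.58 in 3218 and 8.53 in 5932. The groups did not overlap, and the lowest MOET value was 1.68 times the highest IVP value. Means were 4.52 ± 0.417 CPM in IVP and 8.86 ± 0.502 CPM in MOET calves (SD, n = 4), or on the log2 scale a fold change of -0.95 (SE 0.12), which is a ratio of 0.518. With 81 to 121 counts per IVP library, the coefficient of variation in IVP testicles (9.22%) was no larger than counting alone gives (9.85%). The same held in MOET testicles, with 190 to 222 counts per library, at 5.66% against 6.98%. Here too the choice of the gene on this contrast can favour a small spread.

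ENSBTAG00000039151 was also lower in IVP testicles, on few counts. IVP calves had 9 counts (3208), 8 (3209), 13 (5833) and 11 (5841), and MOET calves had 31 (3213), 38 (3217), 22 (3218) and 31 (5932). As levels these were 0.394 to 0.542 CPM in IVP and 0.949 to 1.63 CPM in MOET testicles. All 4 MOET calves were above all 4 IVP calves, with MOET calf 3218 nearest to the IVP group. Means were 0.449 ± 0.0690 CPM in IVP and 1.32 ± 0.283 CPM in MOET calves (SD, n = 4), or on the log2 scale a fold change of -1.51 (SE 0.23). The ratio of summed counts, 41 over 122, was 0.343 after scaling. No interval is given for it, since this contrast chose the gene.

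**Figure D1:**
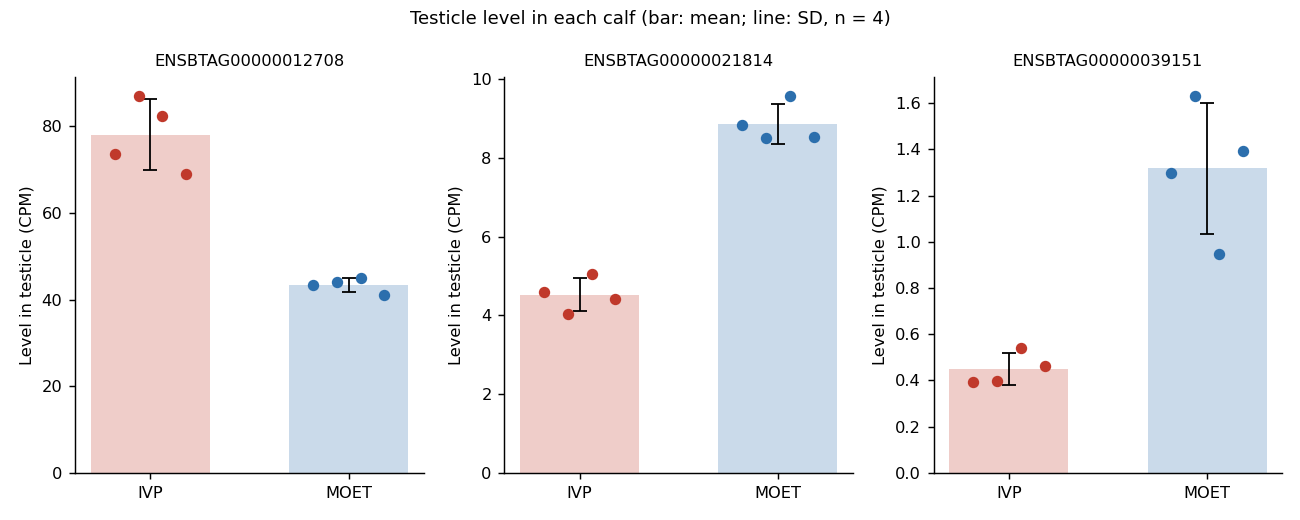
Testicle level in CPM (vertical axes, each from 0) of the 3 genes in the 4 IVP and 4 MOET calves. Points are calves, bars are group means and lines are SDs; in every panel the IVP and MOET points do not overlap, with IVP above MOET for ENSBTAG00000012708 and below it for the other two.

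Ranked by the p of edgeR's quasi-likelihood test over the 16352 genes tested in the testicle, the 3 genes stood at places 2, 3 and 6. Places 1, 4 and 5 were held by genes that were all higher in IVP calves. The gene just after them, at place 7, had 110 CPM on average in IVP testicles against 73.2 CPM in MOET testicles (log2 fold change 0.61, SE 0.09), and the one at place 8 was at 0.591 and 1.54 CPM (-1.35, SE 0.22). In the edgeR fit of the testicle 0.00612% of genes tested passed an adjusted p of 0.05, which is 1 gene and none of the 3. The Wald test of DESeq2 called 289 genes in the testicle, so this count depends on the method. Non-overlapping groups with IVP higher were found for 2.2% of genes tested, and with IVP lower for 4.9%. These shares are given as background only, since the 3 genes were chosen on this contrast. The median log2 fold change of all genes tested there was 0.03, and the median of its absolute size was 0.14.

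The testicle values were also computed without single calves. Without MOET calf 3213 (144 days, the heaviest) the log2 fold changes were 0.88, -0.95 and -1.52 for ENSBTAG00000012708, ENSBTAG00000021814 and ENSBTAG00000039151. The share of counts held by the 100 most counted genes was 31% in testicle IVP 3209 and 29.0% in testicle MOET 5932, against 23.8% to 25.6% in the other 6 testicles. Without IVP 3209 the 3 values were 0.80, -0.91 and -1.48, and without MOET 5932 they were 0.85, -0.96 and -1.49. After removal of the origin means, Pearson's r over the 8 testicles was 0.01 between ENSBTAG00000012708 and ENSBTAG00000021814, -0.11 between ENSBTAG00000012708 and ENSBTAG00000039151, and -0.11 between ENSBTAG00000021814 and ENSBTAG00000039151. Over all 32 libraries, after removal of the mean of each tissue and origin, the same 3 pairs had r of 0.71, -0.07 and 0.03. The values of a pair come from the same libraries, ENSBTAG00000021814 and ENSBTAG00000039151 have few counts in several tissues, and these r are descriptions.

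By tissue, the 3 genes had 3 unlike patterns. ENSBTAG00000012708 was read in all 4 tissues, most in the hypothalamus. Over the 8 calves of both origins (mean ± SD, n = 8), its level ran in order from 164.8 ± 28.2 CPM there, through 116.7 ± 20.7 CPM in pituitaries and 60.7 ± 19.3 CPM in testicles, to 9.80 ± 3.65 CPM in adrenals. The hypothalamus (114.8 to 196.9 CPM) and pituitary (91.2 to 162 CPM) overlapped, while the testicle (41.0 to 87.0 CPM) lay below every pituitary and above every adrenal (6.62 to 18.1 CPM). With both origins weighted equally, the testicle was lower than the hypothalamus by a log2 fold change of -1.50 (SE 0.14, edgeR adjusted p = 6.50e-11, quasi-likelihood test over 18242 genes). It was also lower than the pituitary (-0.999, SE 0.14, edgeR adjusted p = 1.69e-07), and higher than the adrenal (2.59, SE 0.15, edgeR adjusted p = 5.14e-15). These contrasts average both origins and so include the testicle values that chose the gene. Per calf, testicle over hypothalamus was 0.361 to 0.619 in IVP and 0.224 to 0.357 in MOET calves. Testicle over pituitary was 0.622 to 0.905 and 0.253 to 0.410, and testicle over adrenal 4.81 to 10.96 and 4.57 to 6.66.

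ENSBTAG00000021814 was read mainly in the testicle. There it had 81 to 222 counts per library, against 5 to 15 in the hypothalamus, 0 to 5 in the adrenal and 0 to 4 in the pituitary. The hypothalamus held 0.485 ± 0.177 CPM (SD, n = 8), so that the testicle at 6.69 ± 2.36 CPM was higher by a log2 fold change of 3.70 (SE 0.32, edgeR adjusted p = 2.15e-11). Counts were 0 in 6 of 8 pituitaries and in 3 of 8 adrenals, and a count of 0 allows up to 3 counts. From sums of 1233 and 5 counts, the testicle to pituitary ratio was 214.8, with a 95% counting interval of 91.8 to 662.8. Of the 5 pituitary counts, 4 came from MOET 5932 and 1 from IVP 5833. The fitted log2 fold change was 7.62 with all calves, 9.25 without MOET 5932 and 8.39 without IVP 5833, so its size rests on these libraries. From 1233 and 14 counts, the ratio to the adrenal was 76.7 (45.5 to 140.6). Both differences passed the test (edgeR adjusted p = 1.71e-14 and 1.33e-13). The low-count filter of this fit kept ENSBTAG00000021814 through its testicle counts. A higher testicle level could therefore hardly fail to appear. These tests, and that against the hypothalamus, are no separate support for it. Pituitary and adrenal levels at or near the floor could not be ordered.

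ENSBTAG00000039151 showed another order, with the adrenal and pituitary on top. Adrenals had 7.00 ± 1.22 CPM, pituitaries 5.90 ± 1.56 CPM, testicles 0.883 ± 0.502 CPM and hypothalami 0.291 ± 0.171 CPM (SD, n = 8). Adrenal (4.48 to 8.30 CPM) and pituitary (3.36 to 8.27 CPM) values overlapped, and every testicle lay below every library of these tissues. The testicle was lower than the adrenal by a log2 fold change of -3.17 (SE 0.24, edgeR adjusted p = 1.73e-12) and lower than the pituitary by -2.92 (SE 0.24, edgeR adjusted p = 6.11e-12). It was higher than the hypothalamus (1.40, SE 0.30, edgeR adjusted p = 1.06e-04), where libraries held 1 to 10 counts. The origins were unlike in this. MOET means were 1.32 CPM in testicles and 0.252 CPM in hypothalami, and IVP means were 0.449 and 0.329 CPM. The contrast weights both origins equally and so includes the MOET testicle values that chose the gene. Testicle and hypothalamus values overlapped, since IVP testicles, at 0.394 to 0.542 CPM, came close to hypothalami at 0.0416 to 0.473 CPM.

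All 9 contrasts of the testicle with another tissue thus passed, 5 with the testicle higher and 4 with it lower. For ENSBTAG00000021814, kept by the filter through its testicle counts, a higher testicle was close to fixed beforehand. Passing was also the usual outcome in these contrasts. Of the 18242 genes tested, 82.0% passed for testicle over hypothalamus, 76.3% for testicle over pituitary and 76.3% for testicle over adrenal. The median absolute log2 fold change over all genes was 0.95, 0.77 and 0.74 in the 3 contrasts. The absolute differences of the 3 genes were above these medians in each of the 9 contrasts.

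**Figure D2:**
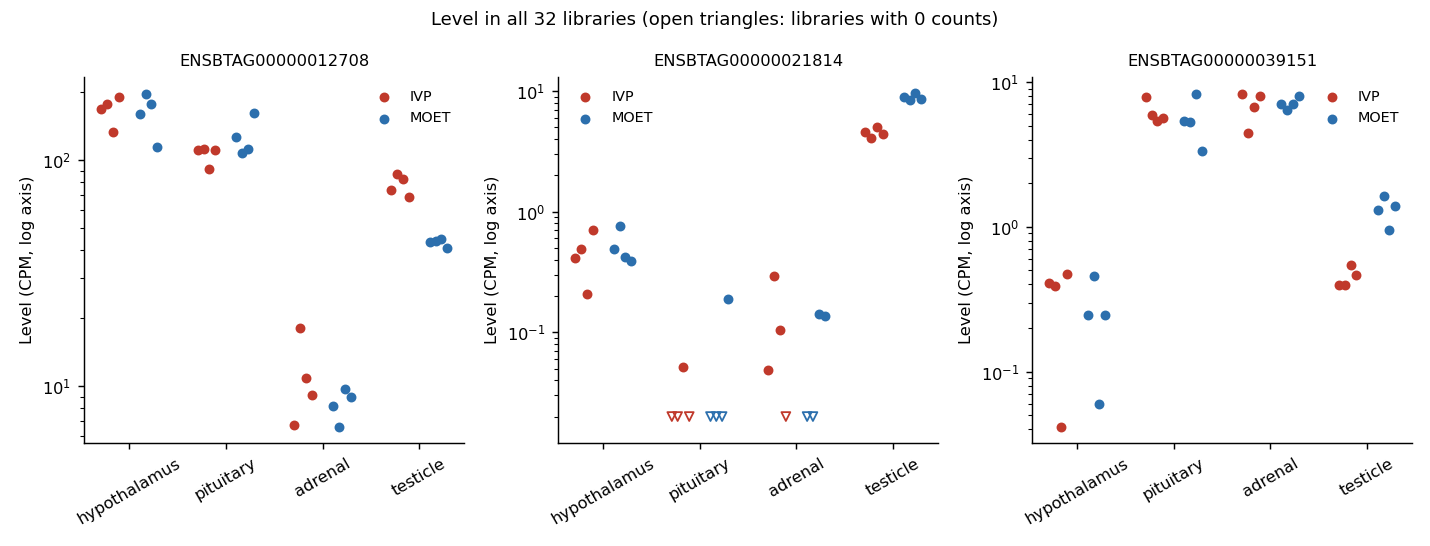
Level in CPM (log axis) of the 3 genes in all 32 libraries by tissue, IVP in red and MOET in blue; open triangles at the bottom are libraries with 0 counts. ENSBTAG00000012708 runs from 6.62 CPM in the adrenal to 196.9 CPM in the hypothalamus, ENSBTAG00000021814 is highest in the testicle, ENSBTAG00000039151 is highest in the adrenal and pituitary, and the colours lie apart in the testicle alone.

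Outside the testicle, none of the 3 genes passed the test of origin in any tissue in which it could be tested. The low-count filter left ENSBTAG00000012708 in all 3 tissues, ENSBTAG00000039151 in the pituitary and adrenal, and ENSBTAG00000021814 in none. In these 5 tests 0 passed, by edgeR or by DESeq2, and 1 had an unadjusted p under 0.05 in edgeR. The share of all genes that passed was 0.056% in the hypothalamus, 15.3% in the pituitary and 39.3% in the adrenal. Groups did not overlap for 9.93%, 22.9% and 39.1% of genes tested in these tissues, and they overlapped in each of the 5 tests here. They also overlapped in the pairs of gene and tissue that the filter left out. Those pairs are not comparable with these shares, since few counts make an overlap likely. A p above the threshold does not show that the origins were alike. If values of these tissues entered the choice of the genes, tests that did not pass there were favoured beforehand.

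In the hypothalamus ENSBTAG00000012708 was at 168.1, 177, 133.2 and 191.3 CPM in IVP calves 3208, 3209, 5833 and 5841, and at 159.8, 196.9, 177 and 114.8 CPM in MOET calves 3213, 3217, 3218 and 5932. The IVP values lay inside the wider MOET range. The log2 fold change was 0.05 (SE 0.17, edgeR adjusted p = 0.852). It is the tissue with the highest level of this gene. The 100 most counted genes held 25.75% to 29.27% of the IVP and 30.63% to 34.11% of the MOET hypothalamus libraries. The part of this in the hypothalamus values was not tested.

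In the pituitary the difference of ENSBTAG00000012708 ran the other way from the testicle, without passing. IVP calves had 110.7, 111.8, 91.2 and 111.1 CPM (3208, 3209, 5833, 5841), and MOET calves had 127.3, 107.5, 112.4 and 162 CPM (3213, 3217, 3218, 5932). The MOET values 107.5 and 112.4 lay beside the 3 upper IVP values, so the groups met. On the log2 scale IVP minus MOET was -0.28 (SE 0.12, edgeR adjusted p = 0.137, which was 0.0448 before adjustment). Without MOET 5932 it was -0.15 (edgeR adjusted p = 0.225; 0.0791 to 0.589 over the alternatives).

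In the adrenal ENSBTAG00000012708 had 6.73, 18.1, 10.9 and 9.15 CPM in IVP calves 3208, 3209, 5833 and 5841, and 8.20, 6.62, 9.74 and 8.98 CPM in MOET calves 3213, 3217, 3218 and 5932. IVP 3209 was the highest of the 8 adrenals, and IVP 3208 was the second lowest. The log2 fold change was 0.41 (SE 0.28, edgeR adjusted p = 0.260), and without IVP 3209 it was 0.09 (edgeR adjusted p = 0.717; 0.0714 to 0.717 over the alternatives). The 100 most counted genes held 29.9% to 30.8% of the IVP and 24.9% to 27.4% of the MOET adrenal libraries; the part of this in the adrenal values was not tested.

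ENSBTAG00000039151, which was lower in IVP testicles, had overlapping ranges in both origins where it was most abundant. Adrenal levels were 8.30, 4.48, 6.75 and 7.96 CPM in IVP calves 3208, 3209, 5833 and 5841, and 7.09, 6.38, 7.00 and 8.03 CPM in MOET calves 3213, 3217, 3218 and 5932. The MOET values lay inside the IVP range, with a log2 fold change of -0.05 (SE 0.19, edgeR adjusted p = 0.845). Pituitary levels were 7.91, 5.95, 5.36 and 5.62 CPM in the same IVP calves and 5.39, 5.33, 8.27 and 3.36 CPM in the same MOET calves. Here the highest and the lowest value were both from MOET calves, 3218 and 5932, and the log2 fold change was 0.13 (SE 0.25, edgeR adjusted p = 0.738). In the hypothalamus the sums were 28 counts in IVP and 20 in MOET, a scaled ratio of 1.23 with a counting interval of 0.671 to 2.31.

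For ENSBTAG00000021814 the counts outside the testicle gave loose ratios. Hypothalamic counts were 9, 10, 5 and 15 in IVP calves 3208, 3209, 5833 and 5841 and 10, 15, 7 and 8 in MOET calves 3213, 3217, 3218 and 5932. The sums of 39 and 40 counts gave a scaled IVP over MOET ratio of 0.859, with a 95% counting interval of 0.538 to 1.37. In the adrenal, 8 and 6 counts gave a ratio of 1.47 (0.447 to 5.13), and in the pituitary 1 and 4 counts gave 0.238 (0.00483 to 2.40). In the adrenal and pituitary, a difference of the size seen in the testicle was not detectable at this depth. These intervals cover counting error and not the spread between calves.

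**Figure D3:**
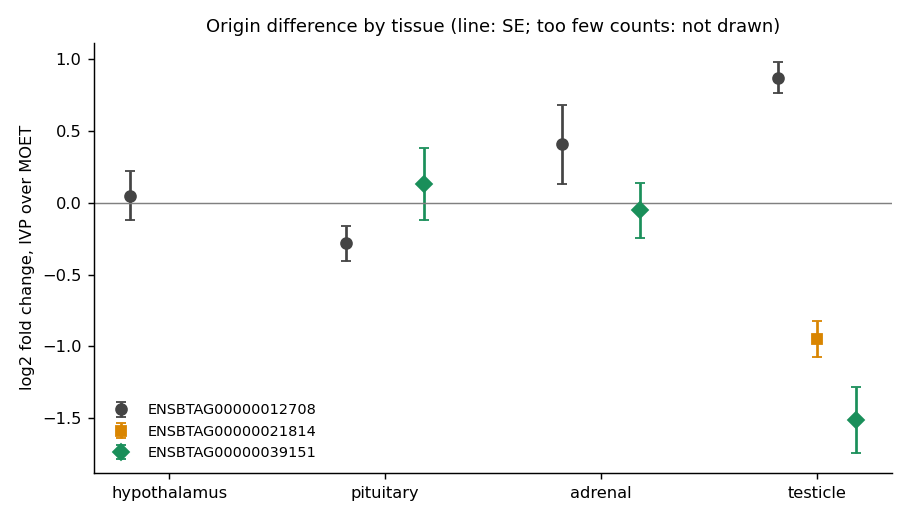
Log2 fold change of IVP over MOET (vertical axis) by tissue for each gene, with its SE as a line, from edgeR fits of 8 libraries per tissue; gene and tissue pairs with too few counts are not drawn. Outside the testicle the values lie between -0.28 and 0.41, and in the testicle they are 0.87, -0.95 and -1.51.

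Whether the origin difference varied among the hypothalamus, pituitary and adrenal was tested on the 24 libraries of these tissues. Neither gene that could be tested passed (edgeR F test, adjusted p = 0.158 for ENSBTAG00000012708 and 0.865 for ENSBTAG00000039151), while 45.7% of the 17559 genes tested did. In this fit a calf's libraries count as independent. Values of these tissues may also have entered the choice of the genes, so no conclusion is drawn from the F tests. The difference between the testicle and the other tissues was not tested, because the testicle contrast chose the genes.

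Set against the other tissues of the same calf, the testicle level of ENSBTAG00000012708 separated the origins. The testicle level over the mean of the hypothalamus, pituitary and adrenal was 0.775, 0.851, 1.05 and 0.666 in IVP calves 3208, 3209, 5833 and 5841. In MOET calves 3213, 3217, 3218 and 5932 it was 0.442, 0.425, 0.451 and 0.430. The MOET calves were close to one another, and each IVP calf was above them. The mean of the 3 other tissues was 78.4 to 103.8 CPM in IVP and 95.3 to 103.7 CPM in MOET calves, with the lowest value in IVP 5833, so that this calf had the highest ratio without the highest testicle level.

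For ENSBTAG00000021814 the same ratio overlapped between origins, at 15.4 to 41.6 in IVP and 33.6 to 53.9 in MOET calves. Its denominator was 0.121 to 0.262 CPM, where a floor of 3 counts stands for 0.125 to 0.180 CPM in a single library. For ENSBTAG00000039151 the ratio was 0.0711 to 0.134 in IVP and 0.186 to 0.402 in MOET calves, without overlap. Against the hypothalamus alone it was 0.961, 1.02 and 0.977 in IVP calves 3208, 3209 and 5841 and 13.0 in 5833, whose hypothalamus had 1 count. In MOET calves it was 5.28 (3213), 3.58 (3217), 15.8 (3218, also with 1 count in the hypothalamus) and 5.66 (5932). Each of these ratios holds the testicle values that chose the genes, so they carry no test.

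**Figure D4:**
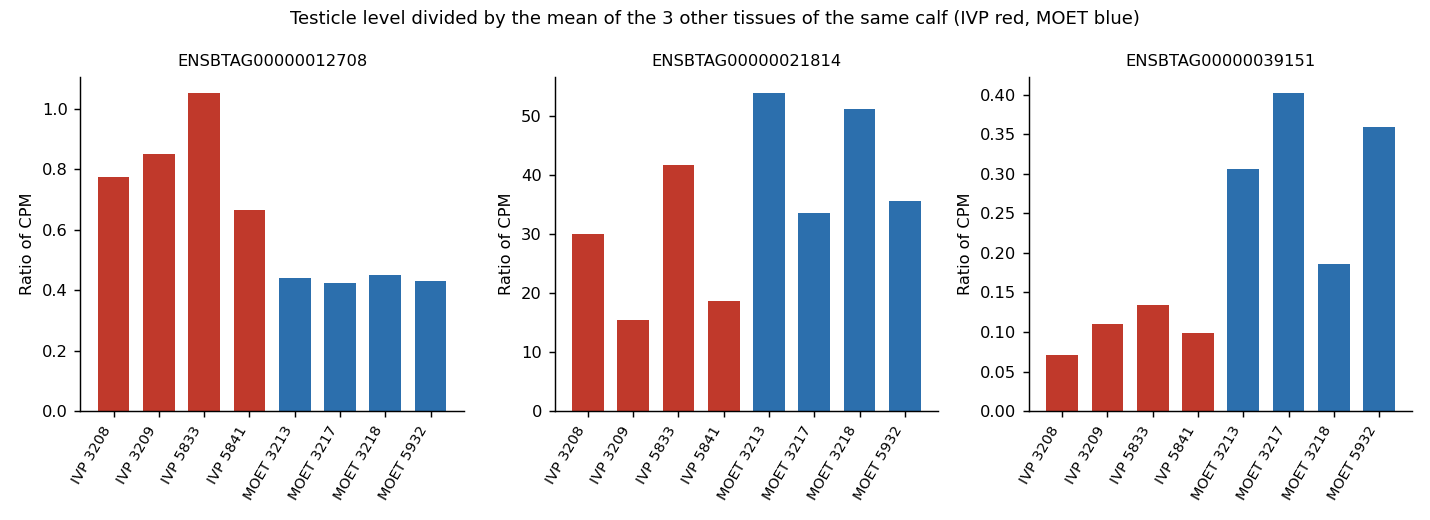
Testicle level divided by the mean level of the other 3 tissues of the same calf (vertical axis, a ratio of CPM from 0), 1 bar per calf, IVP in red and MOET in blue. IVP bars lie above MOET bars for ENSBTAG00000012708 (0.666 to 1.05 against 0.425 to 0.451), overlap them for ENSBTAG00000021814, and lie below them for ENSBTAG00000039151.

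Other genes came close to each pattern. The likeness was Pearson's r of log2 CPM over the 32 libraries, taken once as it stands and once after removal of the mean of each tissue and origin, and the gene with the highest r was taken. Tissue differences dominate the first measure, and depth and composition of shared libraries enter both. The gene most like ENSBTAG00000012708 over tissues was ENSBTAG00000034385 (r = 0.98). Its mean levels in hypothalamus, pituitary, testicle and adrenal were 97.1, 45.1, 30.9 and 4.75 CPM. Its testicle level was 35.0 ± 3.76 CPM in IVP and 26.7 ± 3.73 CPM in MOET calves (SD, n = 4). Within groups ENSBTAG00000008952 was most like it (r = 0.89), with 71.7 ± 8.75 CPM in IVP and 79.8 ± 10 CPM in MOET testicles, which is the opposite order of origins.

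ENSBTAG00000012606 was most like ENSBTAG00000021814 over tissues (r = 0.98), with 20.9 CPM in the testicle, 1.09 in the hypothalamus, 0.265 in the adrenal and 0.182 in the pituitary. IVP testicles had 15.9 ± 5.21 CPM of it and MOET testicles 25.8 ± 3.82 CPM (SD, n = 4). ENSBTAG00000000507 was most like ENSBTAG00000039151 (r = 0.95), with mean levels of 493 CPM in adrenals, 366.5 in pituitaries, 37.9 in testicles and 21.7 in hypothalami. Its testicle level was 24.1 ± 5.60 CPM in IVP and 51.7 ± 22.1 CPM in MOET calves. Within groups the highest r were 0.76 for ENSBTAG00000021814 (ENSBTAG00000011922) and 0.75 for ENSBTAG00000039151 (ENSBTAG00000006934). Both members have tissues with few counts, 0 to 15 and 1 to 10, so these r are weak descriptions. IVP testicles had 150.3 ± 8.95 CPM of ENSBTAG00000011922 against 167.6 ± 11.6 CPM in MOET testicles, and 962.1 ± 377.6 CPM of ENSBTAG00000006934 against 604.2 ± 298.2 CPM.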

How the data were processed

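Per the labels' protocols, the libraries were poly(A)-selected and do not keep strand; SOAPnuke filtered the paired reads. Per the submitters' processing notes, STAR 2.7, HTSeq and the bosTau9 build were used on the authors' side; annotation release and HTSeq settings are not given in these sources, so reads of overlapping or near-identical genes may be shared. The deposited table holds raw counts, not normalized, of 27607 genes and 32 libraries.

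Genes were filtered with filterByExpr (minimum count 10, minimum total 15), scaled with TMM and tested over all genes by quasi-likelihood in edgeR, with adjusted p (Benjamini-Hochberg) called at 0.05. Origin was fitted per tissue on 8 libraries, and tissue on 32 libraries in 8 groups. The SE is the log2 fold change over the root of F. Log2 CPM used a prior count of 2. The scripts were tested on simulated counts. Calf numbers are shared across tissues and pair libraries of the same animal, never calves of unlike origin; deviations from group means correlated between tissues of a calf by -0.03 to 0.21 on average. The named genes are the 3 members and, as IDs had no symbols, 1 gene per measure of likeness; planned marker lists and neighbouring genes were not used. Members and lists were chosen with earlier results of these data known. The alternatives were the Wald test or the size factors of DESeq2, all genes without a filter, 1 fit of all libraries, animal number series as a covariate, the calf as a replicate block, and each calf left out. The number series set IVP calves 5833 and 5841 and MOET calf 5932 apart from the other calves. Software was R 4.3.3, edgeR 4.0.16, DESeq2 1.42.0, Python 3.11.15, scipy and matplotlib 3.10.9.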

Additional observations from a re-analysis of the deposited data

Results flagged for a closer look

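Of 24 groups of 4 libraries (3 genes, 4 tissues, 2 origins), 3 held a calf whose gap to the nearest other calf exceeded Dixon's 95% limit, where chance flags about 1 group in 20. ENSBTAG00000012708 in the pituitary of IVP 5833 was at 91.2 CPM (1770 counts), below the other 3 IVP pituitaries at 110.7 to 111.8 CPM. ENSBTAG00000021814 was at 0.0515 CPM (1 count) in the pituitary of IVP 5833 and at 0.189 CPM (4 counts) in that of MOET 5932, where the other 3 libraries of each group had 0 counts. A group with 1 library above 0 and the rest at 0 always exceeds the limit. The rate of 1 in 20 therefore does not apply to these groups. The ENSBTAG00000021814 value of IVP 5833 lies under the floor of 3 counts (0.1545 CPM in that library). That of MOET 5932 lies just above its floor (0.1418 CPM).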

How the results depend on the processing

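Over 19 results, 228 of 234 values under the alternatives kept their direction and their side of the threshold, or, in the testicle by origin, moved by less than 1 SD. The other 6 were changes of sign without a call, in each case when 1 calf was left out: ENSBTAG00000012708 in the hypothalamus (-0.02 without IVP 5841, -0.08 without MOET 5932), ENSBTAG00000039151 in the pituitary (-0.01 without IVP 3208, -0.05 without MOET 5932) and in the adrenal (0.11 without IVP 3209, 0.01 without MOET 5932). Testicle log2 fold changes ran from 0.80 to 0.93 for ENSBTAG00000012708, -0.99 to -0.91 for ENSBTAG00000021814 and -1.64 to -1.40 for ENSBTAG00000039151. The genes were chosen on this testicle contrast, and most genes of the series pass the contrasts between tissues. The count of 228 is therefore no measure of how robust the results are. With the calf as a replicate block, which was possible for contrasts between tissues, no call changed; testicle over hypothalamus for ENSBTAG00000039151 was 1.42 (edgeR adjusted p = 3.26e-04). The number of genes called by origin over all genes varied more: 1 to 2018 in the hypothalamus (9 as reported, 1250 with DESeq2, 2018 with all libraries in 1 fit), 340 to 2951 in the pituitary (2417), 2424 to 8234 in the adrenal (6068) and 0 to 289 in the testicle (1; 289 with DESeq2, 180 with all libraries in 1 fit). The cause was not tested. Depth limits ENSBTAG00000021814 outside the testicle and ENSBTAG00000039151 in the hypothalamus and testicle.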
